A study of Mus musculus with 44 samples.

Results

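The 40 genes described here are imprinted genes of the mouse, followed through the embryonic and extraembryonic lineages that build the gut. They were chosen by name from well-known imprinted domains and not by their values, and make up 40 of the 32287 genes for which the authors listed expression. Their levels are given in TPM (the length-corrected share of a gene in the RNA of a library, scaled to the same total in each). Of the 40 genes, 34 are protein-coding and 6 are non-coding. By common knowledge 23 are expressed from the paternal and 14 from the maternal copy, and 3 (Gnas, Inpp5f and H13) by isoform. They lie in 18 domains on 12 chromosomes, with 14 on chromosome 7, and 4 further genes (Sfmbt2, Gab1, Jade1 and Smoc1) belong to the noncanonical imprints.

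The study labelled the origin of cells by colour and compared gut cells of embryonic and extraembryonic origin with each other and with their progenitors. Morulae of mCherry+ CD1/G4 background were aggregated with GFP+ mouse embryonic stem cells, so that the epiblast and its descendants carried GFP and the extraembryonic tissues mCherry. The mCherry transgene came from a piggyBac insertion driven by the EF1a promoter in males mated to CD-1 females. GFP came from a CAG-EGFP insertion at Rosa26 in a single clone of the male F1G4 line, and the embryos were carried by CD1 foster females. At E6.5 the groups were the epiblast (Epi), the distal extraembryonic endoderm (exEndo1) and the proximal extraembryonic endoderm (exEndo2), each with 4 libraries of 1 manually isolated embryo. At E9.5 they were exMidgut and exHindgut (mCherry+), emMidgut and emHindgut (GFP+ cells with low mCherry) and the yolk sac endoderm (YsEndo, mCherry+). Each had 4 libraries made from 4 pooled embryos and sorted for the epithelial protein EPCAM. The paper describes the GFP+ cells with low mCherry as embryonic cells that took up remnants of dying extraembryonic cells. It states that they can hold some extraembryonic transcripts. At E13.5 the groups were EPCAM+ cells of the small intestine (SI) and colon. Each of exSI, exColon, emSI and emColon had 3 libraries of 1 embryo. The exSI and exColon cells were mCherry+ and carried a Trp53 knockout, and the emSI and emColon cells were GFP+ and wild type. The gate of embryonic cells was thus GFP+ with low mCherry at E9.5 and GFP+ at E13.5. It changed together with stage, and these cannot be told apart. In what follows, exGut and emGut join midgut and hindgut (n = 8 each), and exInt and emInt join small intestine and colon (n = 6 each). By the methods midgut and hindgut were dissected from the posterior part of the same embryos, and small intestine and colon from the same intestines. Libraries of the joined groups can therefore share embryos, which libraries do so is not given, and p-values over joined groups may be too small.

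Origin therefore changed together with strain, culture history, sex, reporter and, at E13.5, Trp53 genotype, and these cannot be told apart. The reporters followed the labels: EGFP lay between 180 and 532 TPM in Epi and at most 15.9 TPM in exEndo1. The gut endoderm markers (8 genes) summed to between 1137 and 3063 TPM in the gut libraries of E9.5. This range overlapped YsEndo (1403 to 1777 TPM), exEndo1 (1036 to 1305 TPM) and exEndo2 (1083 to 1508 TPM). The sum therefore does not separate gut from the other endoderm groups. The yolk sac endoderm markers (9 genes) summed to between 65144 and 74649 TPM in YsEndo. Libraries held 10382 to 13596 genes above 1 TPM and, by the authors' coverage, 3.528 to 12.04 Gb of aligned bases. The number of reads behind each value is unknown, so the precision of a level is known only through the spread between libraries. In libraries of many cells, fewer cells of a type and less RNA per cell cannot be told apart. The levels also do not show which parental copy was expressed.

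Imprinted genes are expressed mainly or wholly from 1 parental copy, a choice set in the germline. At most domains the mark is DNA methylation of a control region, which the embryo keeps through its early wave of demethylation. Such genes occur in clusters, often with a maternally expressed non-coding RNA beside paternally expressed protein-coding genes, and many regulate the growth of the fetus and placenta. The noncanonical imprints rest in the oocyte on a histone mark, H3K27me3, and are known from extraembryonic tissues, where the paternal copy is expressed.

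Together the 40 genes took a small share of the RNA, which was lowest in the epiblast. Their summed level was 1916 to 2064 TPM in the 4 Epi libraries and 5139 to 7095 TPM in exEndo1. In exEndo2 the sum was 5705 to 6265 TPM. At E9.5 the sums of exMidgut (4849 to 5607 TPM) and emMidgut (4534 to 5322 TPM) overlapped. Those of exHindgut (3632 to 4482 TPM) and emHindgut (3439 to 3827 TPM) overlapped as well. YsEndo ranged from 4920 to 5732 TPM. At E13.5 exSI held 3081 to 3726 TPM, all above emSI (2491 to 2989 TPM), whereas exColon (2414 to 2845 TPM) and emColon (2304 to 2725 TPM) overlapped. The group means of 20 genes exceeded 1 TPM in all 12 groups, those of Nap1l5 and Rasgrf1 in none, and 17 genes were listed at 0 in at least 1 library.

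The first comparison asked whether gut cells that share a place in the embryo differ in imprinted gene expression by their origin. Of 39 imprinted genes tested, 6 were higher and 1 lower in exGut than in emGut at E9.5 (an adjusted p under 0.05 by limma and a change above 1 on the log2(TPM + 1) scale, as throughout). That is 17.9% of the genes tested, against 2.40% of all 15041 genes (1.15% higher and 1.25% lower). With region as a covariate the 361 called genes of the whole table became 657, and with a replicate block 609, while the same 7 imprinted genes were called in both. The higher genes were H19, Nnat, Sfmbt2, Gab1, Jade1 and Peg10, and the lower gene was Zdbf2. The median difference of the 39 genes was 0.12, and that of all genes was -0.03. Without correction 14 of the 39 genes had a p under 0.05. In 4 genes all 8 exGut libraries lay above all 8 emGut libraries, and in 2 all lay below, where 1.46% of all genes did not overlap in either direction (0.731% higher and 0.731% lower).

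H19, a maternally expressed non-coding RNA (chr7:142575529-142578143, minus strand, mm10), showed the widest gap. It was at 740.3, 1108, 1181 and 784 TPM in exMidgut and at 456, 651, 526 and 540.0 TPM in exHindgut. In emMidgut it was at 5.82, 3.05, 119 and 138 TPM, and in emHindgut at 8.00, 7.46, 106 and 137 TPM. All 8 exGut libraries were above all 8 emGut libraries, and within emGut replicates 1 and 2 of both regions were low and replicates 3 and 4 were high. The difference was 4.61 ± 0.72 (log2, SE; adjusted p = 0.00052, limma). It was 5.16 ± 0.89 in midgut (adjusted p = 0.00443) and 4.05 ± 0.72 in hindgut (adjusted p = 0.00454). Both regional calls were lost where limma's spread was estimated without a trend (adjusted p = 0.0579 and 0.0637) and where weakly expressed genes were kept (0.118 and 0.11).

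H19 RNA is also the precursor of miR-675, whose arms are shown because this hairpin is the known small-RNA product of the transcript. The sequences are those of RefSeq (GRCm38), with the seed, bases 2 to 8, in capitals. The arms do not share a seed, and mature miR-675 was not measured by these libraries.
mmu-miR-675-5p, chr7:142577112-142577133, minus strand: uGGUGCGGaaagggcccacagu
mmu-miR-675-3p, chr7:142577078-142577099, minus strand: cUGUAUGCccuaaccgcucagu

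Igf2, the paternally expressed growth factor beside H19, did not follow it. It was at 135, 182, 182 and 129.8 TPM in exMidgut and at 202, 173, 172 and 204 TPM in emMidgut, with overlap. In hindgut the exGut libraries held 74.6, 83.3, 79.8 and 75.4 TPM, all below the emGut libraries at 198, 191, 119 and 109 TPM. The difference over both regions was -0.59 ± 0.21 (log2, SE; adjusted p = 0.147, limma), and in hindgut it was -0.92 ± 0.18 (adjusted p = 0.00899), short of the fold required. It passed without emHindgut replicate 3 (-1.02; adjusted p = 0.00842, limma) or replicate 4 (-1.07; adjusted p = 0.00382). The low-H19 emHindgut libraries, replicates 1 and 2, were those with the highest Igf2. The ratio of H19 to Igf2 RNA was 5.50 to 7.81 in exGut and 0.0176 to 1.26 in emGut. Igf2 shares 64.5% of its exonic bases with Igf2os and a fused gene model, and the libraries do not keep the strand, so reads of these genes cannot be told apart.

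Nnat and Zdbf2, both paternally expressed, separated the origins in opposite directions. Nnat encodes neuronatin, a small membrane protein, within an intron of Blcap. It was at 29.4, 7.99, 12.2 and 13.9 TPM in exMidgut and at 31.2, 37.3, 25.1 and 13.8 TPM in exHindgut. In emMidgut it was listed at 0, 0.354, 0.800 and 3.56 TPM, and in emHindgut at 1.03, 0.986, 2.18 and 1.55 TPM. The groups did not overlap, and the difference was 3.26 ± 0.36 (log2, SE; adjusted p = 8.52e-06, limma). Its host gene Blcap did not pass the test: exGut held 20.2 to 46.9 TPM and emGut 38.9 to 63.5 TPM.

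Zdbf2, which encodes a zinc finger protein, was close to absent from the extraembryonic cells. Its levels were 0.172, 0.269, 1.03 and 0.464 TPM in exMidgut and 0.0475, 0.341, 0 and 0.585 TPM in exHindgut. In emMidgut they were 5.20, 6.53, 6.66 and 6.88 TPM, and in emHindgut 7.88, 5.85, 6.92 and 7.39 TPM. The groups did not overlap, and the difference was -2.52 ± 0.22 (log2, SE; adjusted p = 3.54e-07, limma). The pseudocount makes this an understatement for a gene near 0.

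Among the noncanonical imprints, 3 of 4 were higher in exGut. Gab1, a docking protein of receptor tyrosine kinases, was at 40.9, 50.7, 47.2 and 27.9 TPM in exMidgut and at 19.2, 35.6, 36.6 and 24.6 TPM in exHindgut. In emMidgut it was at 12.8, 13.6, 12.5 and 15.6 TPM, and in emHindgut at 6.90, 12.3, 8.35 and 9.09 TPM. The groups were apart, with a difference of 1.53 ± 0.21 (log2, SE; adjusted p = 0.000177, limma). Jade1, a subunit of a histone acetyltransferase complex, was at 64.3, 82.1, 57.2 and 72.8 TPM in exMidgut and at 39.4, 43.4, 67.3 and 51.2 TPM in exHindgut. Its levels were 16.9, 22.1, 21.3 and 27.7 TPM in emMidgut and 24.3, 14.3, 29.6 and 26.0 TPM in emHindgut. The Jade1 groups did not overlap either (1.35 ± 0.18, adjusted p = 8.93e-05).

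Sfmbt2, a Polycomb-related protein, was at 10.3, 10.9, 10.6 and 8.55 TPM in exMidgut and at 7.39, 11.9, 7.39 and 5.21 TPM in exHindgut. In emMidgut it was at 2.68, 2.23, 11.9 and 4.04 TPM, and in emHindgut at 1.05, 0.690, 1.87 and 0.346 TPM. The origins overlapped through emMidgut replicate 3 alone, and the difference was 1.62 ± 0.38 (log2, SE; adjusted p = 0.0169, limma). The remaining noncanonical gene, Smoc1, a secreted matrix protein, overlapped widely, at 16.9 to 73.9 TPM in exGut and 21.5 to 46.8 TPM in emGut, and did not pass the test.

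The promoters of Nnat, Zdbf2, Gab1, Jade1 and Sfmbt2, the called genes with an entry in the RefSeq promoter set used, are shown with their CpG sites. Methylation at CpG sites is the mark that silences an imprinted copy at canonical domains. That reason covers Nnat and Zdbf2, while Gab1, Jade1 and Sfmbt2 are noncanonical imprints. Each run is the 250 bases before a RefSeq start on GRCm38 (mm10), read 5′ to 3′ on the strand of the gene, with every CpG in capitals. For Zdbf2, RefSeq lists a second start 72907 bases upstream of the start in the deposited files.
Nnat, chr2:157559828-157560077, plus strand: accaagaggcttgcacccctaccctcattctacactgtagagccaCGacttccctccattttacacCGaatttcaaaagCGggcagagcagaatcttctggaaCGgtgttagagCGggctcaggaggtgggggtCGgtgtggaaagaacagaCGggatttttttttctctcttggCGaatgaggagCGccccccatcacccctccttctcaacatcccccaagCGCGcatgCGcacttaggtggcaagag
Zdbf2, chr1:63273019-63273268, plus strand: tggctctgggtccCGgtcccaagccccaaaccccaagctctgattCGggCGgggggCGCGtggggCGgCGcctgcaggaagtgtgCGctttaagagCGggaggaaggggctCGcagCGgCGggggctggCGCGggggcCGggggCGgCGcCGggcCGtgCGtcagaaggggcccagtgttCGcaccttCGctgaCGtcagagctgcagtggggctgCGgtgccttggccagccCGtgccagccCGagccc
Zdbf2, chr1:63200108-63200357, plus strand: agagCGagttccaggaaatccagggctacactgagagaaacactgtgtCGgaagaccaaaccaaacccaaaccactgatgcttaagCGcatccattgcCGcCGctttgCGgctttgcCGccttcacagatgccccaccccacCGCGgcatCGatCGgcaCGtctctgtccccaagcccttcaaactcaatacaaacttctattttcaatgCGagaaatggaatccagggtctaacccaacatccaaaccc
Gab1, chr8:80880520-80880769, minus strand: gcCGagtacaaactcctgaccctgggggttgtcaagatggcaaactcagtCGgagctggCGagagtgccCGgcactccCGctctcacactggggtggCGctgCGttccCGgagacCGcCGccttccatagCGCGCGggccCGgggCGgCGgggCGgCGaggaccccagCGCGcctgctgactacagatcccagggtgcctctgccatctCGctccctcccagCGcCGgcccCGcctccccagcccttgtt
Jade1, chr3:41555484-41555733, plus strand: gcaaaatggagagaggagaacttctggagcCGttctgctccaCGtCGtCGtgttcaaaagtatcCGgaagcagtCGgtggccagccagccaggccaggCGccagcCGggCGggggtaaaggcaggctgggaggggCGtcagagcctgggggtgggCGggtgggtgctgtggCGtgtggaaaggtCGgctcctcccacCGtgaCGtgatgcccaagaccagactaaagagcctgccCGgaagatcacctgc
Sfmbt2, chr2:10370201-10370450, plus strand: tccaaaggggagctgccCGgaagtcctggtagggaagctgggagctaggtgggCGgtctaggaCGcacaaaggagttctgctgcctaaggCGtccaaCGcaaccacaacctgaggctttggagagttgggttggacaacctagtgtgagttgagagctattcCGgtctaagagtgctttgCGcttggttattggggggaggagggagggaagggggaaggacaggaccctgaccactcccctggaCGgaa
The windows held 12 CpG sites for Nnat, 26 and 13 for the near and far starts of Zdbf2, 24 for Gab1, 16 for Jade1 and 8 for Sfmbt2. The median over 32817 promoter windows of this length was 6, and that of the 33 imprinted genes with an entry was 11. The 6 bases TGCCGC, or GCGGCA on the other strand, known as the motif bound by ZFP57 when methylated, were found 3 times in the far Zdbf2 window and in none of the others printed. Of all windows 8.68% held it, and of the nearest windows of the imprinted genes 4 of 33 (12.1%).

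Peg10, a protein derived from a retrotransposon, was at 84.5, 90.3, 33.6 and 58.0 TPM in exMidgut and at 50.9, 75.4, 57.4 and 48.2 TPM in exHindgut. It was at 28.6, 39.9, 34.8 and 21.5 TPM in emMidgut and at 40, 20.8, 24.8 and 24.8 TPM in emHindgut. The origins overlapped only in midgut, and the difference of 1.04 ± 0.20 (log2, SE; adjusted p = 0.004, limma) lay close to the fold required. It fell to between 0.95 and 0.99 without exMidgut replicate 1 or 2, exHindgut replicate 2, emMidgut replicate 4 or emHindgut replicate 2. Sgce, which starts beside Peg10 on the opposite strand and encodes a sarcoglycan, did not pass the test, at 50.4 to 157 TPM in exGut and 36.7 to 120.0 TPM in emGut.

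Snrpn and Grb10 were lower in exGut by less than the fold required. Grb10, an adaptor that restrains insulin and IGF signalling, was at 259.9 to 370.4 TPM in all exGut libraries and at 381 to 479 TPM in all emGut libraries. Its difference was -0.49 ± 0.09 (log2, SE; adjusted p = 0.00163, limma). Snrpn, a spliceosomal protein, was at 81.9, 62.1, 54.7 and 72.3 TPM in exMidgut against 168, 165, 149.7 and 176 TPM in emMidgut. In exHindgut it was at 86.8, 116, 95.2 and 107 TPM against 115, 126, 123 and 130.4 TPM in emHindgut. The midgut libraries were far apart, whereas in hindgut 1 exGut library exceeded the lowest emGut library. Snrpn fell by 1.28 in midgut (SE 0.15; adjusted p = 0.000209), and over both regions by 0.79 (SE 0.15; adjusted p = 0.00347). It was the only 1 of 39 imprinted genes whose difference by origin changed between the regions (0.99 on the log2 scale, hindgut minus midgut; adjusted p = 0.0401, limma), where 0.0931% of all genes did. Another 5 of the 39 had an unadjusted p under 0.05. The Snrpn interaction was lost when any 1 of 15 libraries was left out and was kept without exMidgut replicate 1.

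Within regions the counts were similar. In midgut 4 of 38 imprinted genes were higher (H19, Nnat, Gab1 and Jade1) and 2 lower (Snrpn and Zdbf2) in exGut cells, where 2.63% of all genes were called (1.31% higher and 1.32% lower). In hindgut 7 were higher (H19, Phlda2, Peg10, Nnat, Sfmbt2, Gab1 and Jade1) and 1 lower (Zdbf2), where 3.13% of all genes were called (1.47% higher and 1.66% lower). Phlda2 in hindgut (1.05 ± 0.28; adjusted p = 0.0421, limma) was the weakest of these. Its call was lost without exHindgut replicate 1 or 2 or emHindgut replicate 1, 3 or 4, with adjusted p between 0.0684 and 0.119. Jade1 in hindgut lost its call without exHindgut replicate 3 (0.93) or emHindgut replicate 2 (0.87), and Peg10 without either replicate 2 (0.93 and 0.95).

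Markers of other cells moved with origin in these libraries. The yolk sac endoderm list (9 genes) summed to between 7168 and 17158 TPM in exMidgut and between 1488 and 3282 TPM in emMidgut. In exHindgut it summed to 130 to 702 TPM, with Cubn at 0, and in emHindgut to 43.7 to 105 TPM. The neural list (10 genes) summed to 15.1 to 63.4 TPM in emMidgut and to at most 4.78 TPM in exMidgut, where Pax6, Neurog2, Sox10, Tubb3 and Sox1 were at 0. The germ cell list (7 genes) reached 269 and 221 TPM in emMidgut replicates 1 and 3 and at most 11.5 TPM in the other E9.5 gut libraries, where Prdm14 was at 0 in exGut. Most of these 2 high sums came from a single gene, Dppa3, at 224 and 183 TPM. Ddx4 of the same list was at 0.272 and 4.65 TPM in these libraries. The mesenchyme list (10 genes) summed to 22.7 to 31.4 TPM in exMidgut against 40.5 to 105 TPM in emMidgut, where Tbx18, Twist1 and Foxf1 were at 0. In hindgut it summed to 24.5 to 38.7 TPM in exHindgut against 52.1 to 68.8 TPM in emHindgut, with Tbx18 at 0 in both. Of this list 1 of 7 genes tested was called lower in exGut than in emGut and 0 higher. The part of these lists in the results was not tested. Without the 2 emMidgut libraries of high germ cell sum, a setting chosen after seeing the data, the same 7 genes were called between exGut and emGut, with Sfmbt2 at 2.00 (adjusted p = 0.00113). In midgut alone 5 were then called, 3 of them as before (H19, Jade1 and Snrpn). Gab1 (1.42; adjusted p = 0.0541, limma) and Nnat (2.62; adjusted p = 0.0727) were not called, and Zdbf2 no longer passed the filter on low values. Phlda2 (2.89) and Dlk1 (1.22) were gained.

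At E6.5, most imprinted genes differed between the epiblast and both parts of the extraembryonic endoderm. In exEndo1, 22 of 34 tested genes were higher and 4 lower than in Epi, or 76.5%, where 33.3% of all genes were called (20.0% higher and 13.3% lower). The median difference of the 34 genes was 1.54, and that of all genes was 0.12. In exEndo2, 21 were higher and 6 lower, where 35.6% of all genes were called (20.5% higher and 15.1% lower). Of the lowest calls, Meg3 in exEndo2 (1.07) was lost without Epi replicate 1 (0.98) or exEndo2 replicate 1 (0.89). Both comparisons use the same 4 Epi libraries. Another scaling of the libraries shifted the median of all genes by -0.14 for exEndo1 and -0.11 for exEndo2.

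H19 had the largest difference of the 40 genes. It was at 1.26, 0.596, 0.491 and 0.614 TPM in Epi and at 736, 1316, 2150.5 and 1721 TPM in exEndo1. In exEndo2 it was at 1573, 2026, 2167 and 2587 TPM. No Epi library came near the lowest endoderm library, and the differences were 9.65 ± 0.28 (log2, SE; adjusted p = 5.38e-10, limma) and 10.23 ± 0.18 (adjusted p = 3.19e-12). Igf2 was at 0.248, 0.205, 0.454 and 0.333 TPM in Epi and at 27.7, 40.6, 71.1 and 53.8 TPM in exEndo1, with 39.6 to 87.0 TPM in exEndo2. Both endoderm groups lay above Epi in every library (5.16 ± 0.26 and 5.64 ± 0.23).

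Peg10 and its neighbour Sgce were both higher in the endoderm. Peg10 was at 4.00, 1.91, 1.82 and 3.90 TPM in Epi and at 108, 208, 281 and 184 TPM in exEndo1, with 225 to 299 TPM in exEndo2. Sgce was at 3.52, 4.68, 4.01 and 7.31 TPM in Epi and at 86.8, 100.005, 87.5 and 107 TPM in exEndo1, with 48.3 to 71.9 TPM in exEndo2. Neither gene overlapped between Epi and the endoderm, with differences of 5.62 and 6.16 for Peg10 and 4.07 and 3.36 for Sgce (log2, exEndo1 and exEndo2).

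All 4 noncanonical imprints were higher in both parts of the endoderm. Sfmbt2 was at 1.68, 0.688, 0.883 and 1.83 TPM in Epi and at 51.6, 76.7, 93.9 and 90.5 TPM in exEndo1, with 116 to 199.9 TPM in exEndo2. Gab1 was at 7.77, 2.57, 2.78 and 1.95 TPM in Epi and at 37.7, 41.6, 41.9 and 39.8 TPM in exEndo1, with 31.9 to 44.2 TPM in exEndo2. The Epi libraries were the lowest for both genes, and the differences in exEndo1 were 5.12 ± 0.24 for Sfmbt2 and 3.25 ± 0.29 for Gab1 (log2, SE). Jade1 differed by 1.58 and 2.16 and Smoc1 by 2.07 and 2.59, again without overlap.

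The 4 genes lower in exEndo1 than in Epi were Snrpn, Ndn, Magel2 and Zdbf2, all paternally expressed. In exEndo2 these 4 and also Mest and Grb10 were lower. Snrpn was at 393, 455, 489 and 258 TPM in Epi, at 8.51, 18.8, 5.62 and 24.4 TPM in exEndo1, and at 3.27, 5.64, 3.92 and 6.90 TPM in exEndo2. Its differences were -4.86 ± 0.38 (log2, SE; adjusted p = 8.49e-07, limma) and -6.08 ± 0.23 (adjusted p = 1.54e-09). Every Epi library was far above every endoderm library. Ndn, a MAGE family protein of the same domain, was at 9, 11.2, 11.9 and 8.45 TPM in Epi and at 0.485, 1.13, 0.0927 and 0.395 TPM in exEndo1. Magel2, another, was at 6.23, 11.0, 11.0 and 10.5 TPM in Epi and was listed at 0, 0.0695, 0 and 0.251 TPM in exEndo1. Both were at most 0.554 TPM in exEndo2. Zdbf2 was at 11.4 to 22.7 TPM in Epi, 0.950 to 1.53 TPM in exEndo1 and 0.811 to 1.19 TPM in exEndo2. Ube3a, the maternally expressed ubiquitin ligase of the Snrpn domain, did not pass the test in either comparison.

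Airn and Igf2r were both higher in the endoderm. Airn is the paternally expressed RNA that runs antisense through Igf2r. It was at 0.0537, 0.149, 0.0735 and 0.431 TPM in Epi and at 25.3, 27.0, 29.4 and 22 TPM in exEndo1, with 18.3 to 45.3 TPM in exEndo2 (4.52 ± 0.17 and 4.5 ± 0.27, log2, SE). Igf2r, the receptor that clears IGF2, was at 8.32 to 9.27 TPM in Epi, 25.6 to 41.3 TPM in exEndo1 and 41.8 to 49.2 TPM in exEndo2. Its differences were 1.84 ± 0.17 and 2.21 ± 0.13 (log2, SE), and the groups did not overlap. The annotated exons of the pair do not overlap, but unspliced RNA of either strand cannot be told apart.

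**Figure D1:**
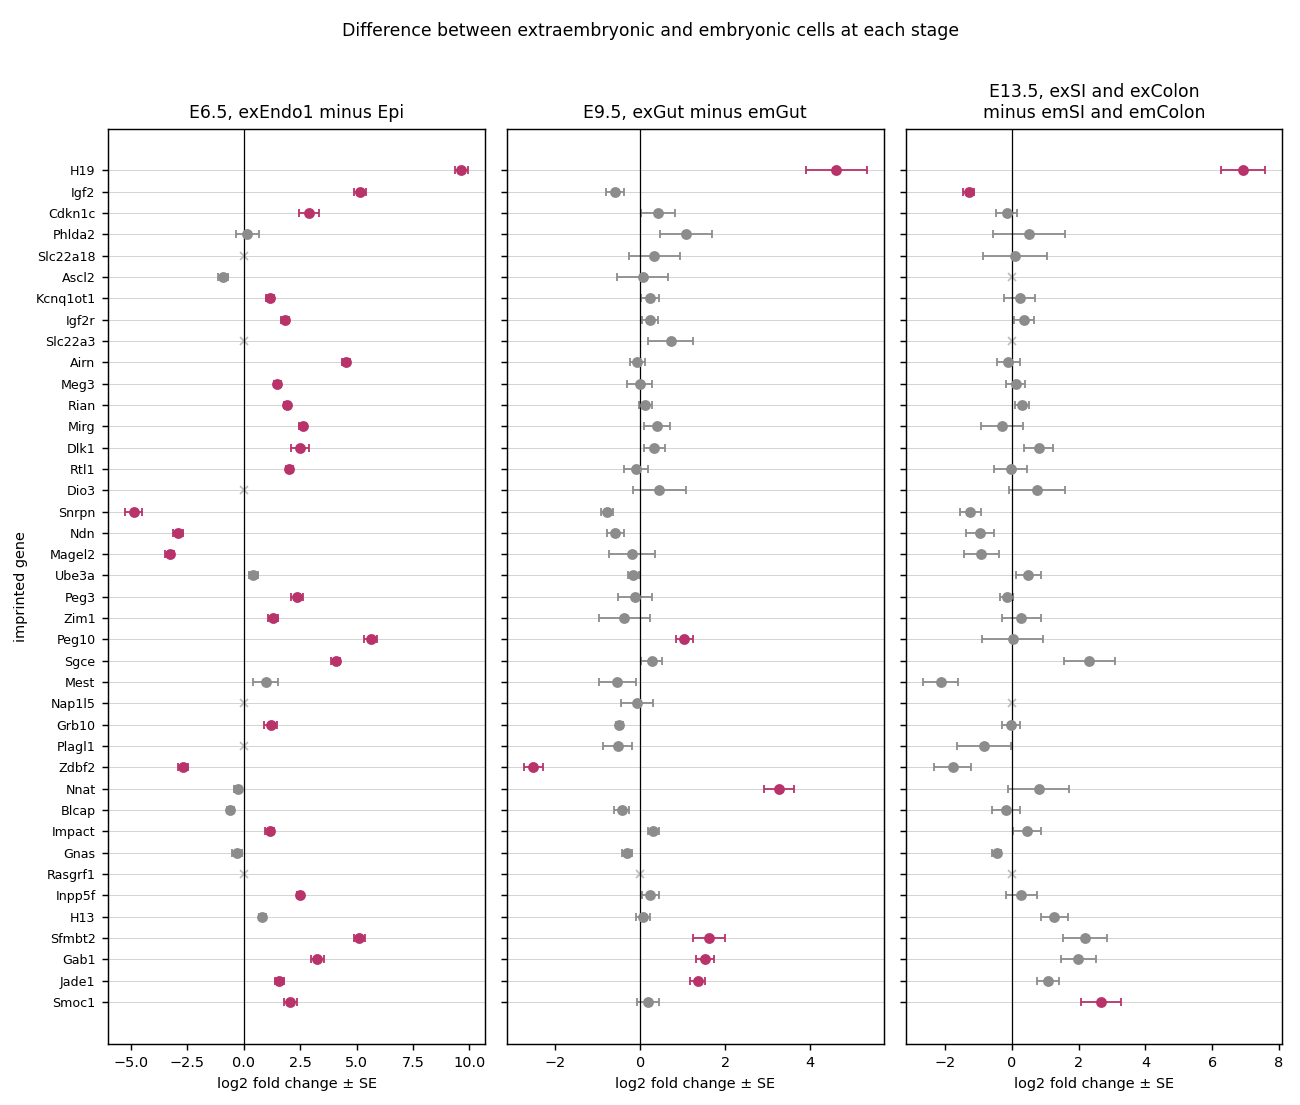
Difference of each imprinted gene on the log2(TPM + 1) scale (points; bars, SE) in the comparisons by lineage and origin, each panel with its own x scale. Called genes are red, others grey, and crosses mark genes not tested. H19 is the largest difference in exEndo1 against Epi (9.65), in exGut against emGut (4.61) and at E13.5 (6.92).

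The distal and proximal parts of the extraembryonic endoderm differed in few imprinted genes. Of 32 tested, Mest and Grb10 were higher and Phlda2 lower in exEndo1 than in exEndo2, where 6.20% of all genes were called (3.92% higher and 2.28% lower). Another 13 had an unadjusted p under 0.05. Mest, a protein of the hydrolase fold family, was at 443, 499, 62.4 and 330.3 TPM in exEndo1 and at 2.25, 3.45, 1.68 and 14.8 TPM in exEndo2 (5.71 ± 0.67 log2, SE; adjusted p = 0.000326, limma). Grb10 was at 496, 170.4, 186 and 268 TPM against 43.9, 25.1, 27.8 and 23.9 TPM (3.08 ± 0.31; adjusted p = 0.000109). Phlda2, which restrains the growth of the placenta, was at 22, 54.8, 129 and 49.1 TPM against 199, 648, 452 and 326 TPM (-2.79 ± 0.46; adjusted p = 0.00268). None of the 3 genes overlapped between the groups. The epiblast list (7 genes) summed to 373 to 640 TPM in exEndo1 and 174 to 229 TPM in exEndo2, with 3 of 6 tested genes called higher in exEndo1. The mesenchyme list summed to 9.37 to 15.96 TPM in exEndo1 and 45.7 to 89.3 TPM in exEndo2, with 1 of 2 tested genes called lower. The trophoblast list (8 genes) summed to 15.8 to 54.0 TPM and 50.4 to 122 TPM, with overlap. No gene of the epiblast and mesenchyme lists was at 0 in all libraries of either group, Hand1 of the trophoblast list was at 0 in exEndo1, and the part of these lists was not tested. Against Epi, Mest and Grb10 were lower in exEndo2 (-4.75 and -1.88), while in exEndo1 Grb10 was higher (1.2) and Mest differed by 0.97 (adjusted p = 0.143). The Grb10 call in exEndo1 against Epi was lost without exEndo1 replicate 1 (0.88).

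Replicate numbers paired exEndo1 with exEndo2. With the replicate number as a block, 4 imprinted genes were called, Snrpn being added (1.21 ± 0.23; adjusted p = 0.00671, limma, against 0.0663 without the block). Without exEndo1 replicate 3, which had the lowest Mest and the highest Phlda2 of its group, 6 genes were called, with Slc22a18 (-1.29), Sfmbt2 (-1.08) and Snrpn (1.55) added.

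At E9.5, the yolk sac endoderm stood apart from gut cells of either origin. Of 37 genes tested, 13 were higher and 9 lower in exGut than in YsEndo, where 41.7% of all genes were called (31.8% higher and 9.91% lower). Of 38 tested, 13 were higher and 11 lower in emGut, where 46.0% of all genes were called (35.2% higher and 10.8% lower). Both comparisons share the 4 YsEndo libraries, and the shares of imprinted genes called were 59.5% and 63.2%. Another scaling shifted the median of all genes by -0.42 and -0.44, lowered the share of higher calls among all called genes from 76.2% to 58.6% and from 76.5% to 59.9%, and gave 13 higher and 11 lower imprinted genes for exGut and 12 and 13 for emGut.

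**Figure D2:**
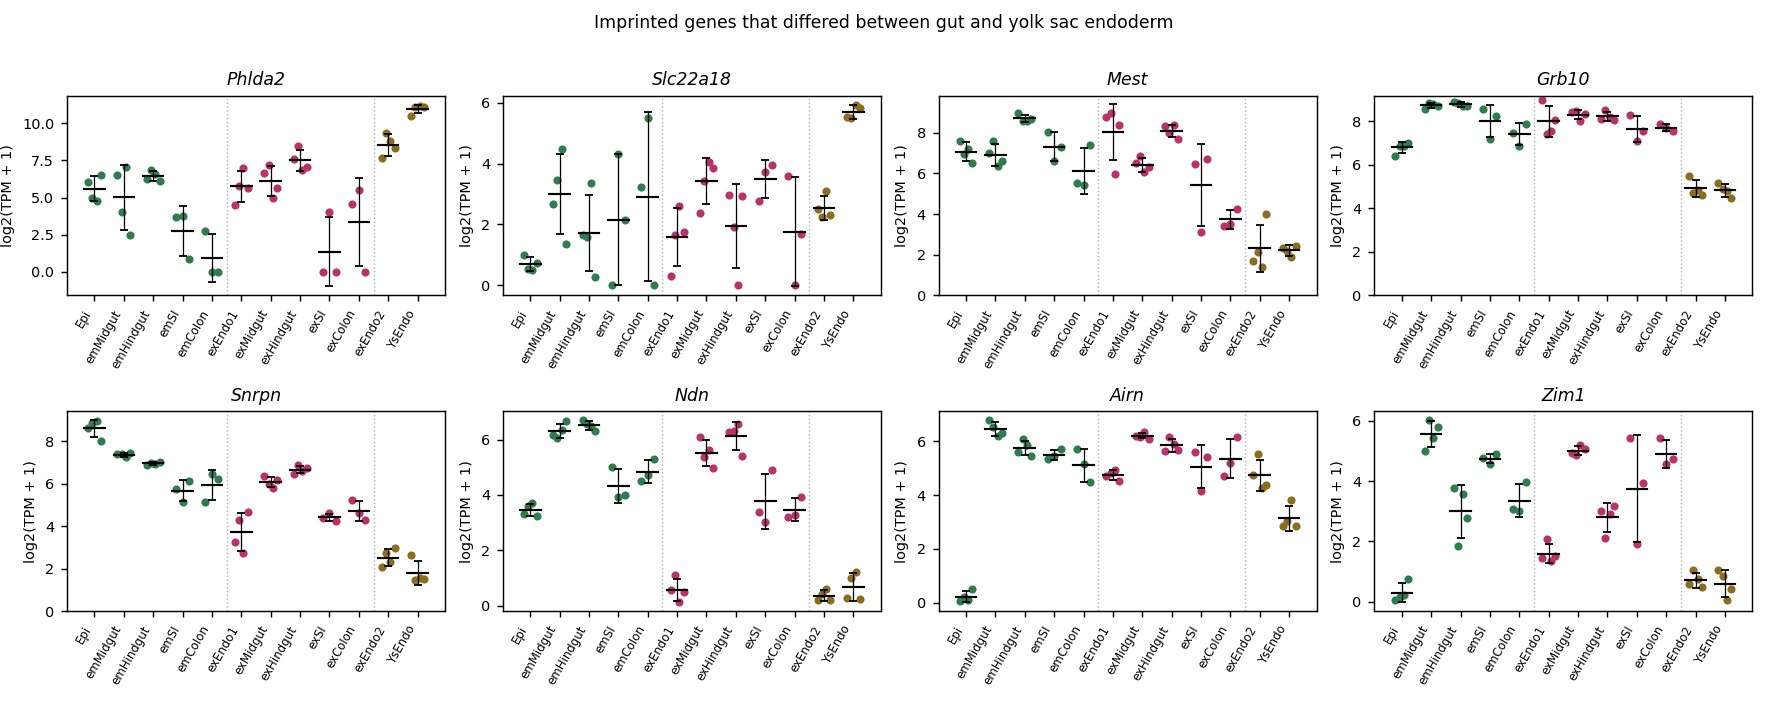
TPM (y axis, log scale) of 8 imprinted genes in every library of the 12 groups (points), with group means (lines) and SD (bars), coloured by lineage (green, embryonic; magenta, extraembryonic gut; brown, exEndo2 and YsEndo). Phlda2 and Slc22a18 peak in YsEndo, and Mest, Grb10, Snrpn, Ndn and Zim1 are low in exEndo2 and YsEndo. Snrpn and Ndn are low in exEndo1 too, and Zim1 is lowest in Epi.

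Phlda2 and Slc22a18, neighbours in the Kcnq1 domain, were the genes with the sharpest yolk sac levels. Phlda2 was at 1472, 2146, 2313 and 2159.8 TPM in YsEndo, 29.7 to 353 TPM in exGut (median 124) and 4.48 to 132 TPM in emGut (median 83.4). Its differences from YsEndo were -4.15 ± 0.48 (log2, SE; adjusted p = 4.41e-06, limma) for exGut and -5.23 ± 0.71 (adjusted p = 1.72e-05) for emGut. Slc22a18, a transporter, was at 45.6, 44.3, 60.5 and 55.5 TPM in YsEndo, at 0 to 15.6 TPM in exGut (median 6.71) and at 0.216 to 21.2 TPM in emGut (median 3.76). No gut library reached the lowest YsEndo library for either gene. Other members of the domain did not share this pattern. Cdkn1c, a cell cycle inhibitor, was at 113 to 144 TPM in YsEndo, within the range of the gut libraries.

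Mest, Grb10, Snrpn, Ndn, Magel2 and Zim1 were low in YsEndo. Mest was at 4.03, 3.61, 2.65 and 4.46 TPM in YsEndo and at 65.4 to 332 TPM in exGut (median 162). Grb10 was at 35.2, 28.4, 26.7 and 21.2 TPM in YsEndo and at 259.9 to 370.4 TPM in exGut (median 308). Neither gene overlapped, with differences for exGut of 5.04 ± 0.42 for Mest and 3.44 ± 0.14 for Grb10 (log2, SE).

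Snrpn was at 5.21, 1.81, 1.97 and 1.81 TPM in YsEndo and at 54.7 to 116 TPM in exGut (median 84.3). Ndn was at 0.211, 0.995, 1.35 and 0.173 TPM in YsEndo and at 30.8 to 92.6 TPM in exGut (median 58.0). All gut libraries were above all YsEndo libraries for both. Ndn differed by 5.14 ± 0.31 in exGut (log2, SE; adjusted p = 6.25e-09, limma) and 5.73 ± 0.21 in emGut (adjusted p = 2.54e-11), and Snrpn by 4.58 ± 0.25 and 5.37 ± 0.21. Magel2 was listed at 0 in all 4 YsEndo libraries and at 0.0104 to 21.7 TPM in exGut (median 8.96).

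Zim1, a maternally expressed zinc finger gene beside Peg3, was at 1.09, 0.802, 0.0375 and 0.337 TPM in YsEndo and 3.30 to 35.3 TPM in exGut (median 18.1). It did not overlap either, at 3.31 ± 0.57 (log2, SE). Nnat was at 0.137, 0.112, 0.479 and 0.446 TPM in YsEndo and 7.99 to 37.3 TPM in exGut (median 19.5), a difference of 3.96 ± 0.37. Peg3 itself was at 91.3 to 157 TPM in YsEndo and 199 to 748 TPM in exGut.

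Several genes higher in both parts of the extraembryonic endoderm than in Epi at E6.5 were also higher in YsEndo than in exGut and emGut. They were Peg10, Sfmbt2, Jade1, Impact, Inpp5f and Mirg. Airn and Peg3, also higher in both parts at E6.5, were lower in YsEndo. Peg10 was at 226 to 294 TPM in YsEndo, all above exGut, with differences of -2.07 ± 0.22 for exGut and -3.10 ± 0.19 for emGut (log2, SE). Sfmbt2 was at 51.4, 39.9, 41.6 and 41.4 TPM in YsEndo and differed by -2.18 ± 0.22 and -3.80 ± 0.47. Jade1 was at 107 to 161 TPM and differed by -1.20 ± 0.19 and -2.54 ± 0.19. Gab1 was at 39.9 to 55.9 TPM and differed by -0.52 (adjusted p = 0.0667, limma) in exGut and by -2.05 (adjusted p = 9.5e-07) in emGut. For Peg10, Sfmbt2, Jade1 and Gab1 every exGut mean lay between the means of emGut and YsEndo. H19 was at 698, 810.5, 828 and 759 TPM in YsEndo, amid the exGut libraries, and was lower in emGut (-4.73 ± 0.99; adjusted p = 0.000752). Airn was at 6.21, 7.26, 13 and 6.18 TPM in YsEndo, below all exGut libraries (49.2 to 79.7 TPM, median 69.0), with a difference of 2.88 ± 0.20. Igf2r, at 40.4 to 46.0 TPM in YsEndo, was not called.

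Some calls against YsEndo lay close to the fold required. In exGut, Mirg (-1.05) was lost without exMidgut replicate 4, exHindgut replicate 1 or YsEndo replicate 2 or 3. Rtl1 (-1.05) was lost without exMidgut replicate 2 or YsEndo replicate 4, and Inpp5f (-1.02) without exHindgut replicate 1, 2 or 3. Their values without these libraries were -0.87 to -0.99, -0.90 to -0.99 and -0.96 to -0.99. Dlk1 was gained without exMidgut replicate 2, 3 or 4 or YsEndo replicate 1 (-1.02 to -1.12).

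At E13.5, when the extraembryonic cells lacked functional Trp53 by their label, few imprinted genes differed by origin. Of 36 tested, H19 and Smoc1 were higher and Igf2 lower in exInt than in emInt, or 8.33%, where 0.649% of all genes were called (0.502% higher and 0.148% lower). Without correction 13 had a p under 0.05. Trp53 RNA itself was at 33.4, 117 and 167 TPM in the exSI libraries, from low to high, and at 42.5, 122 and 124 TPM in exColon. It was at 158, 172 and 201 TPM in emSI and at 151, 226 and 245 TPM in emColon. The lower levels of the knockout cells overlapped the wild type in 1 exSI library, and a level per gene does not check a small edit of the locus. H19 was at 1065, 1240.0 and 1189 TPM in exSI and at 676, 365 and 429.9 TPM in exColon. In emSI it was at 7.08, 4.31 and 2.20 TPM, and in emColon it was listed at 53.5, 0 and 6.10 TPM. The groups did not overlap, and the difference was 6.92 ± 0.66 (log2, SE; adjusted p = 7.38e-06, limma).

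Igf2 was at 259.6, 207 and 204 TPM in exSI and at 176, 128 and 117 TPM in exColon. In emSI it was at 387, 526 and 524 TPM, and in emColon at 358, 504 and 332 TPM. Each embryonic library exceeded each extraembryonic library, and the difference was -1.29 ± 0.17 (log2, SE; adjusted p = 0.000393, limma). The ratio of H19 to Igf2 RNA was 2.85 to 6.0 in exInt and 0 to 0.149 in emInt. The opposite movement of the pair at E13.5 is given here as values, and the change of either difference between E9.5 and E13.5 did not pass the test, nor did that of any of the 40 imprinted genes (limma interaction, 0 called; 6 with an unadjusted p under 0.05; 0.119% of all genes called). None of 36 tested genes passed for a change of the difference between small intestine and colon (4 with an unadjusted p under 0.05; 0.0148% of all genes called).

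Smoc1 was at 22, 21.8 and 17.1 TPM in exSI and at 20.4, 4.51 and 14.8 TPM in exColon. It was at 9.66, 0.384 and 7.04 TPM in emSI and was listed at 0.464, 0 and 0.549 TPM in emColon. The origins overlapped, and the difference of 2.67 ± 0.60 (log2, SE; adjusted p = 0.0468, limma) was lost in 17 of 21 alternatives, including the replicate block (adjusted p = 0.067). Under that block Mest was called (-2.14; adjusted p = 0.0118, against 0.0854). Leaving out single libraries also brought in Mest without exSI replicate 3 (adjusted p = 0.0497), H13 without exColon replicate 2 (0.0273), Snrpn without emColon replicate 1 (0.0437) and Jade1 without emColon replicate 2 (0.0386).

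The E9.5 differences of the other genes were not called at E13.5. Gab1 was at 33.1, 21.7 and 28.2 TPM in exSI and 25.1, 20.6 and 32.2 TPM in exColon, all above emSI (15.6, 3.74 and 3.27 TPM) and emColon (10.4, 13.7 and 0.894 TPM). Its difference was 1.99 ± 0.53 (log2, SE; adjusted p = 0.109, limma). Sfmbt2 differed by 2.18 (adjusted p = 0.186), Jade1 by 1.08 (0.198), Zdbf2 by -1.78 (0.196) and Snrpn by -1.25 (0.0854). Nnat was highest in replicate 2 of all 4 groups, at 13.6 TPM in exSI, 58.9 in exColon, 10.8 in emSI and 31.1 in emColon. Mesenchymal markers (10 genes) summed to 458 and 129.7 TPM in emSI replicates 1 and 2 and to at most 10.5 TPM in the other SI libraries. In the colon they summed to 264 to 374 TPM in exColon, where Col1a1, Col3a1, Pdgfra, Col1a2, Tbx18 and Foxf1 were at 0. In emColon they summed to 308 to 425 TPM, with Pdgfrb, Tbx18 and Twist1 at 0. The yolk sac endoderm list summed to 4717 to 7725 TPM in exSI, above emSI (1696 to 2265 TPM), and overlapped between exColon (3045 to 8472 TPM) and emColon (2561 to 4955 TPM). Of its 9 genes 2 were called higher in exInt than in emInt. The neural list summed to 0.263 to 3.89 TPM in exSI, where Elavl3, Nefl, Stmn2, Neurog2 and Tubb3 were at 0, and to 9.42 to 18.4 TPM in emSI. It was at most 0.179 TPM in exColon and 0.197 to 15.8 TPM in emColon. The part of these lists was not tested. Without emSI replicates 1 and 2, a setting chosen after seeing the data that leaves the colon libraries in, H19 (6.85) and Igf2 (-1.41) remained called. Smoc1 was not called, at a difference of 2.62 (adjusted p = 0.139, limma) with fewer libraries.

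From progenitor to gut at E9.5, more imprinted genes rose than fell in both lineages. Isolation changed together with stage, from dissected tissue of 1 embryo to sorted EPCAM+ cells of 4 pooled embryos. The effects of isolation and stage cannot be told apart. From Epi to emGut 19 of 38 tested rose and 4 fell, where 29.6% of all genes were called (21.4% higher and 8.18% lower). From exEndo1 to exGut 15 of 38 rose and 10 fell, where 30.7% of all genes were called (17.7% higher and 13.1% lower). These comparisons share no library. In both, 10 genes rose (Airn, Cdkn1c, Dio3, Dlk1, Gnas, Igf2, Igf2r, Ndn, Plagl1 and Zim1) and Rtl1 fell. Peg10 rose in the embryonic lineage (2.97 ± 0.25 log2, SE) and fell in the extraembryonic lineage (-1.62 ± 0.27). Nnat and Snrpn fell in the embryonic lineage (-1.08 and -1.44) and rose in the extraembryonic lineage (2.45 and 2.64). Several calls near the fold required depended on single libraries. From Epi to emGut these were Nnat, Rtl1, Slc22a18 and Zdbf2, and from exEndo1 to exGut they were Ascl2, Blcap, Igf2r, Kcnq1ot1 and Meg3. Nnat, for example, was not called without Epi replicate 1 (-1.02; adjusted p = 0.073, limma), nor was Igf2r without exEndo1 replicate 1 (0.93). Rescaling the libraries shifted the median of all genes by -0.23 from Epi to emGut, and the share of higher calls among all called genes went from 72.3% to 59.1%.

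Igf2 rose most in the embryonic lineage, from 0.205 to 0.454 TPM in Epi to 109 to 204 TPM in emGut (7.0 ± 0.19 log2, SE; adjusted p = 1.82e-12, limma). Plagl1, a zinc finger transcription factor, rose in both lineages, from 0.875 to 1.34 TPM in Epi to 12.1 to 61.1 TPM in emGut and from 0.176 to 1.19 TPM in exEndo1 to 9.06 to 30.8 TPM in exGut. Ndn rose from 0.0927 to 1.13 TPM in exEndo1 to 30.8 to 92.6 TPM in exGut (5.26 ± 0.30; adjusted p = 1e-08). Sfmbt2 went the other way, from 51.6 to 93.9 TPM in exEndo1 to 5.21 to 11.9 TPM in exGut (-2.98 ± 0.24; adjusted p = 2.04e-07). The Plagl1, Ndn and Sfmbt2 libraries of the earlier and later stage did not overlap.

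From exEndo2 to YsEndo 6 of 33 genes rose and 9 fell, where 31.4% of all genes were called (7.64% higher and 23.7% lower). Isolation and pooling changed together with stage here as well. Slc22a18 rose from 3.70 to 7.65 TPM to 44.3 to 60.5 TPM (3.17 ± 0.20 log2, SE; adjusted p = 1e-07, limma), and Phlda2 rose by 2.42 ± 0.28. Dlk1, Dio3, Plagl1 and Slc22a3 also rose (1.36 to 2.59). H19 fell from 1573 to 2587 TPM to 698 to 828 TPM (-1.41 ± 0.13), without overlap. Rescaling shifted the median of all genes by 0.36 here, raised the share of higher calls from 24.4% to 47.4%, and took away the calls of Inpp5f (-0.74) and Meg3 (-0.80). Inpp5f was also lost without exEndo2 replicate 1 (-0.99).

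Between E9.5 and E13.5, where the embryonic sorting gate and the extraembryonic Trp53 genotype also changed, more imprinted genes fell than rose. From emGut to emInt 15 of 39 fell and Igf2 rose (1.36 ± 0.17 log2, SE), where 17.0% of all genes were called (2.46% higher and 14.6% lower). From exGut to exInt 14 of 38 fell and 0 rose, where 11.4% of all genes were called (2.59% higher and 8.83% lower). No imprinted gene rose in exGut to exInt by limma, and 25 of the 38 had an unadjusted p under 0.05 in either direction. In both lineages 10 genes fell (Igf2r, Impact, Magel2, Ndn, Peg10, Phlda2, Plagl1, Sgce, Smoc1 and Snrpn). These comparisons also share no library. Phlda2 fell by 3.90 ± 0.78 in the embryonic and by 4.46 ± 0.84 in the extraembryonic lineage, and 5 of the 12 libraries of E13.5 listed it at 0. Rescaling shifted the median of all genes by 0.21 and 0.12 and left 10 falls from emGut to emInt. There it took away Grb10 (-0.80), Meg3 (-0.80), Rian (-0.80), Plagl1 (adjusted p = 0.0596) and Rtl1 (adjusted p = 0.0797). Without single libraries the same 5 genes lost their calls, and in exGut to exInt so did Ascl2 (adjusted p = 0.0507 without exMidgut replicate 1) and Smoc1 (0.0514 without the same library).

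**Figure D3:**
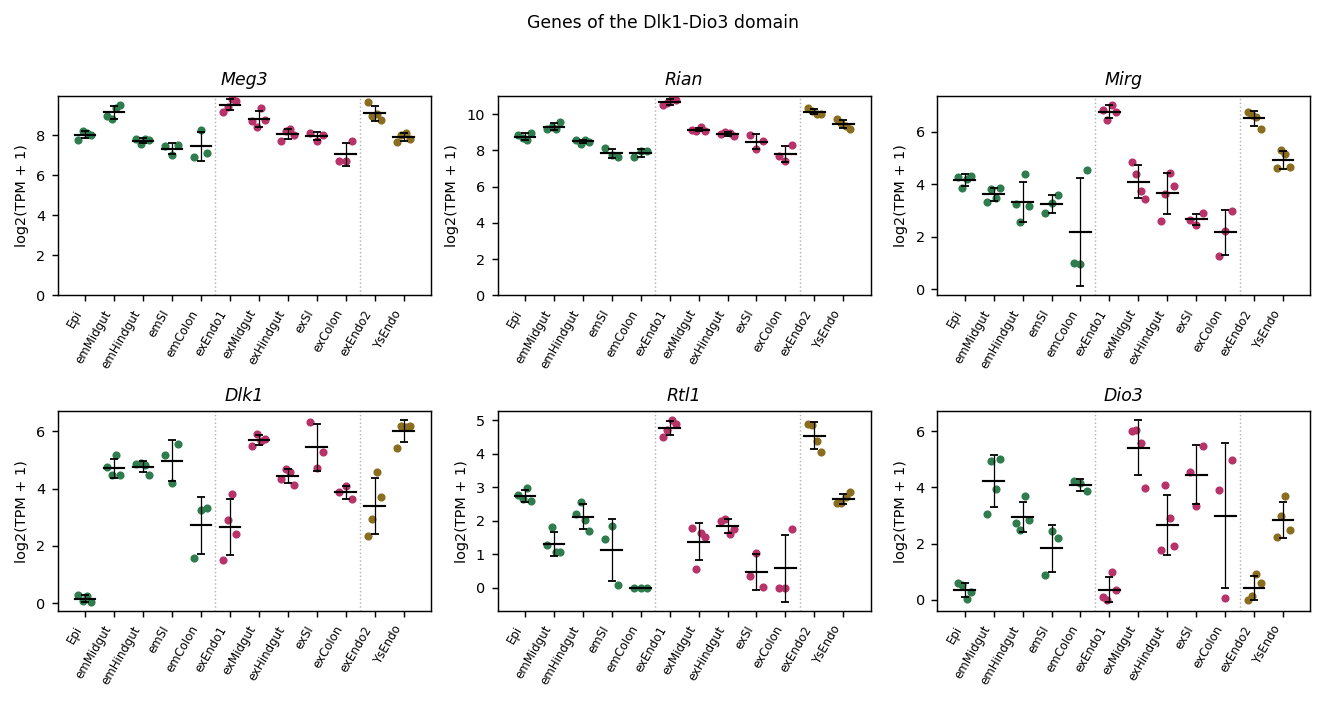
TPM (y axis, log scale) of 6 genes of the Dlk1-Dio3 domain in every library of the 12 groups (points), with group means (lines) and SD (bars), coloured by lineage. Rian, Mirg and Rtl1 are highest in exEndo1 and exEndo2, whereas Dio3 is below 1 TPM in every E6.5 library and reaches 65.4 TPM in exMidgut.

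The Dlk1-Dio3 domain on chromosome 12 joins 3 maternally expressed non-coding RNAs with 3 paternally expressed protein-coding genes, and its members moved in 2 ways. Rian, a non-coding RNA that hosts small nucleolar RNAs, was at 373 to 502 TPM in Epi, 1449 to 1832 TPM in exEndo1 and 1034 to 1300.3 TPM in exEndo2. By E9.5 it was at 433 to 624 TPM in exGut, 329.9 to 749 TPM in emGut and 577 to 833 TPM in YsEndo. Mirg, a microRNA host, was at 13.3 to 19.1 TPM in Epi, 87.1 to 130.2 TPM in exEndo1 and 4.99 to 28.0 TPM in exGut. Rtl1, a retrotransposon-derived gene antisense to several of these microRNAs, was at 5.02 to 6.85 TPM in Epi, 21.5 to 30.7 TPM in exEndo1 and 0.475 to 3.11 TPM in exGut. Meg3 was at 219 to 295 TPM in Epi, 571 to 887 TPM in exEndo1 and 212 to 646 TPM in exGut.

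Dlk1, a membrane protein related to the Notch ligands, and Dio3, which inactivates thyroid hormone, behaved differently. Dlk1 was at 0.0382 to 0.211 TPM in Epi, 1.83 to 13 TPM in exEndo1 and 16.6 to 58.0 TPM in exGut. Dio3 was at 0 to 0.983 TPM in all 12 libraries of E6.5. At E9.5 it was at 63.7, 65.4, 47.3 and 14.7 TPM in exMidgut and at 7.31, 29.4, 14.4 and 31.2 TPM in emMidgut, with overlap. In the other E9.5 groups it was at 2.38 to 16.1 TPM. Over the 12 group means, which share libraries and depth, Mirg and Rtl1 had a Pearson correlation of 0.932 (Spearman 0.888), Meg3 and Rian of 0.898 (0.881), and Rtl1 and Dio3 of -0.8 (-0.727). None of the 6 genes was called between exGut and emGut. Rtl1 shares 8.4% of its exonic bases with antisense microRNA genes, which cannot be told apart here.

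Correlations over the 12 group means were also taken within other domains and among the noncanonical imprints. They were 0.864 for Peg3 and Zim1 (Spearman 0.909) and 0.833 for Snrpn and Magel2 (0.879). Sfmbt2 and Jade1, noncanonical imprints on different chromosomes, had 0.931 (0.895). Peg10 and Sgce had 0.813 (0.79), Igf2r and Airn 0.777 (0.643) and H19 and Igf2 0.252 (-0.301). These are descriptions over 12 groups, without a test.

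The remaining genes are given by range, and some of them varied widely. Gnas, the alpha subunit of a stimulatory G protein, was highest in emHindgut (754 to 825 TPM) and lowest in YsEndo (151 to 174 TPM). Impact, a regulator of translation, was highest in YsEndo (128 to 176 TPM), above every exGut library (45.4 to 96.3 TPM). Inpp5f, a phosphoinositide phosphatase, was at 91.5 to 114 TPM in exEndo1, 15.9 to 18.7 TPM in Epi and 13.3 to 27.9 TPM in exGut. H13, a signal peptide peptidase, was at 17.7 to 106 TPM in exColon and 12.5 to 32.0 TPM in emColon. Kcnq1ot1, the non-coding RNA of the Kcnq1 domain, was at 8.37 to 12 TPM in exEndo1 and at 3.29 to 6.17 TPM in exGut. Ube3a was at 63.2 to 89.3 TPM in exEndo1 and 29.6 to 51.4 TPM in exGut, a fall of 1.08 on the log2 scale. Cdkn1c was at 182 to 378 TPM in exMidgut and at 188 to 276 TPM in emMidgut, and its group mean was lowest in Epi, at 3.76 TPM.

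Ascl2, a transcription factor of trophoblast and intestinal stem cells, was at most 12.4 TPM in any library and was listed at 0 in 15 of 44. Slc22a3, a cation transporter, was listed at 0 in all 12 libraries of E13.5 and was at 1.67 to 2.10 TPM in YsEndo. Nap1l5 and Rasgrf1 did not exceed 3.71 and 1.60 TPM in any library. For such genes the absence of a call says little at this depth and cell input.

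A further list held 38 imprinted genes, of which 36 are in the files, and its difference from the 40 genes was not tested. Between exGut and emGut 2 of 30 tested were higher (Ddc, 1.62, and Platr20, 2.52) and 2 lower (Slc38a4, -2.68, adjusted p = 0.00416, and Tssc4, -1.10, adjusted p = 0.00223, limma). In exEndo1 against Epi 9 of 26 were higher and 6 lower. Against YsEndo 14 of 30 were higher in exGut and 3 lower, and 16 of 31 were higher in emGut and 5 lower. The shares of all genes called are given above with each comparison. Among all genes, too, higher calls outnumbered lower calls in exEndo1 against Epi and in gut of either origin against YsEndo. Slc38a4, an amino acid transporter, was at 82.7 to 123 TPM in emGut and at 0 to 32.6 TPM in exGut. Platr20, a non-coding RNA, was at 1.52 to 10.5 TPM in exGut, 0 to 0.0074 TPM in emGut, and listed at 0 in emInt.

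A list of 12 genes that keep imprints through early development was tested as well. None of 11 tested was called between exGut and emGut or between exInt and emInt by limma, with 2 and 0 at an unadjusted p under 0.05, where 2.40% and 0.649% of all genes were called. In exEndo1 against Epi Zfp57, the zinc finger protein that protects imprints, was higher (1.59) and its partner Trim28 lower (-1.01), 2 of 12 tested, where 33.3% of all genes were called. Zfp57 was also higher in exEndo1 than in exEndo2 (2.64). Against YsEndo 4 of 11 were higher in exGut (Ezh2, Setdb1, Trim28 and Zfp445), where 31.8% of all genes were higher. From exEndo2 to YsEndo Zfp57 rose (2.40) and 6 of 11 fell (Ctcf, Ezh2, Setdb1, Smchd1, Trim28 and Zfp445, -1.16 to -1.40), where 23.7% of all genes fell.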

How the data were processed

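Low-input poly(A) RNA-seq libraries (44) were prepared without strand information. According to the submitters' processing notes and the study's methods, cutadapt 4.1 was used by the authors for trimming, STAR 2.7.9a for alignment to mm10 with the reporters added, and StringTie 2.0.6 for quantification. The deposited TPM values, which sum to 1000000 in each library, were used for all comparisons. The deposited FPKM values served as an alternative, and the deposited coverage, a signal per base, gave the aligned bases per library. Neither read counts nor gene-level counting error were given in the files, so no interval or floor in reads could be computed.

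TPM was summed per gene identifier and transformed as log2(TPM + 1), a scale that understates changes of weakly expressed genes. A gene entered a comparison if it was not Y-linked and exceeded 1 TPM in 4 or more of its libraries (3 where E13.5 libraries entered). Models were fitted in R 4.3.3 by limma 3.58.1, using lmFit and then eBayes with a mean-variance trend. Tests were two-sided, and the Benjamini-Hochberg adjustment covered all tested genes. A call needed an adjusted p under 0.05 and a change above 1, and interactions needed the adjusted p alone. Small intestine and colon entered the E13.5 fit with organ as a covariate. Positions and gene types came from GENCODE vM21 by identifier (32235 of 32287 matched), a release that differs from that of the authors. Values, promoters and figures were handled in Python 3.11.15 with pandas 2.3.3, numpy 2.4.6 and matplotlib 3.10.9. Promoters and the miR-675 arms are those of RefSeq on GRCm38. A promoter entry was used for 33 of the 40 genes. The fitting scripts were tested on simulated data.

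The 40 genes, the gene lists and the tests were chosen with earlier results of these data known. Libraries are given singly for genes called in exGut against emGut, exEndo1 against Epi, exGut against YsEndo or at E13.5, for at most the 10 with the largest change in each, and other genes by range and count. Replicates were separate embryos or pools of 4 embryos. Replicate numbers were checked by the correlation of same-numbered libraries' deviations from their group means. They paired exEndo1 with exEndo2, where each of 4 pairs lay between 0.207 and 0.418 and each library correlated best with its own number. In other groups no source says whether libraries of the same number came from the same embryos, and the correlations did not meet the limit set for pairing.

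Results were recomputed with FPKM, with a pseudocount of 0.1, without the filter, with median-ratio rescaling, without the variance trend, on protein-coding genes alone, on all libraries together, with region added or organ dropped as a covariate, with a replicate block, and with each library left out.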

Additional observations from a re-analysis of the deposited data

Results flagged for a closer look

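Of 151 groups of 4 libraries examined over the 19 genes given library by library, 6 held a library set apart from the rest of its group. Chance alone gives about 1 in 20. The 76 groups of 3 libraries and the joined groups were not examined. Jade1 was at 54.4 TPM in Epi replicate 1 and at 37.9 to 39.7 TPM in the other Epi libraries. Magel2 was at 6.23 TPM in the same Epi library and at 10.5 to 11.0 TPM in the others. In exEndo2 replicate 2 Magel2 was at 0.554 TPM, where the other 3 libraries held 0 to 0.0366 TPM. The remaining 3 were all in YsEndo replicate 1. In that library Phlda2 was at 1472 TPM against 2146 to 2313 TPM, Sfmbt2 at 51.4 TPM against 39.9 to 41.6 TPM, and Snrpn at 5.21 TPM against 1.81 to 1.97 TPM.

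The difference of Snrpn by origin changed between the regions of the E9.5 gut, by 0.99 on the log2 scale (hindgut minus midgut; adjusted p = 0.0401, limma). Snrpn was lower in all 4 exMidgut libraries than in all 4 emMidgut libraries, and in hindgut 3 of 4 exHindgut libraries were lower than all emHindgut libraries. The part of other cells in this result was not tested.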

How the results depend on the processing

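The counts of called imprinted genes were recomputed 323 times, and 299 stayed within 1.5 times the reported count. For 220 pairs of a gene and a comparison, 3539 of 3721 recomputed values kept call and direction, 182 lost the call and 0 reversed. In exHindgut against emHindgut 8 called genes became 4 with no filter on low values and 4 with eBayes without trend. The interaction of origin and region went from 1 gene to 0 with a pseudocount of 0.1 TPM, with no filter, and with eBayes without trend. Leaving out single libraries gave 0 to 1 there, 3 to 6 genes in exEndo1 against exEndo2, and 0 to 1 for the change of the origin difference between stages, where H13 was called without exColon replicate 2 and Smoc1 without emSI replicate 1 or 3. The same omissions gave 6 to 7 genes in exGut against emGut, 6 to 8 in hindgut, 2 to 4 at E13.5, 20 to 23 in exGut against YsEndo and 21 to 25 in exEndo1 against Epi. The causes were not tested. With the replicate block 26 genes were called in exEndo1 against Epi, 27 in exEndo2 against Epi, 4 in exEndo1 against exEndo2, 7 in exGut against emGut, 6 in midgut, 8 in hindgut and 3 at E13.5. Outside the exEndo1 and exEndo2 pair, correlations of same-numbered libraries lay between -0.141 and 0.175, and 3 of 4 libraries of exMidgut and of exHindgut, and all 3 of exSI and of exColon, correlated best with their own number in the embryonic group. Among all genes, the 361 called between exGut and emGut became 609 with the block, 657 with region as a covariate and 668 with all 44 libraries in the fit. Depth limits genes near 0 TPM, since reads per gene are unknown, and so does the small number of sorted cells at E9.5 and E13.5.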

Other observations

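The H19 levels of embryonic gut cells at E9.5 fell into a low pair and a high pair in both regions. Igf2, its neighbour, was not split this way in emMidgut, and in emHindgut it was higher in replicates 1 and 2. Replicates 1 and 2 held 3.05 to 8.00 TPM of H19 and replicates 3 and 4 held 106 to 138 TPM. Igf2 was at 202, 173, 172 and 204 TPM in emMidgut replicates 1 to 4 and at 198, 191, 119 and 109 TPM in emHindgut. Each of these libraries is a pool of 4 embryos. At E13.5, where each library is 1 embryo, emColon replicate 1 held 53.5 TPM of H19 and the other embryonic libraries held 0 to 7.08 TPM.

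The calls can also be divided by the parental copy that is expressed. In exEndo1 against Epi 13 of 19 paternally expressed genes tested were higher and 4 lower, and 8 of 12 maternally expressed genes were higher and 0 lower. In exGut against emGut 5 of 22 paternally expressed genes were higher and 1 lower, and 1 of 14 maternally expressed genes was higher and 0 lower. The shares of all genes called in both comparisons are given above, with more higher than lower calls in exEndo1 against Epi. The difference between the classes was not tested.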
